A study of Mus musculus with 8 samples.

Results

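The CTCF sites at lincRNA promoters were drawn from a table of 104008 CTCF binding sites, obtained by ChIP-seq of immortalised fibroblasts from mouse embryos (iMEF). A site was counted here when its centre lay within 3000 bp of a transcription start site (TSS) of gene type lincRNA in the GENCODE vM1 annotation, and more than 3000 bp from every protein-coding TSS. This gave 361 sites at 263 of the 1273 annotated lincRNA genes. Of these genes, 188 had 1 site, 55 had 2 sites and 20 had 3 or more. Sites within 3000 bp of a protein-coding TSS (18577, coding promoter sites) and sites near neither kind of TSS (85070, distal sites) are given for comparison. Among the coding promoter sites, 595 also lay within 3000 bp of a lincRNA TSS.

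The cells were from 1 iMEF line, carried Ash2l alleles with floxed exon 4 together with the Cre-ER recombinase, and had been immortalised with an shRNA against Arf. The +HOT group received 4-hydroxytamoxifen (HOT), the ligand that activates Cre-ER, at 5 nM for 7 days, and the -HOT group received the solvent ethanol. Each group had 2 CTCF libraries, and 4 inputs were not analysed. Both groups share the floxed alleles and Cre-ER, and HOT treatment of cells without floxed alleles is not part of these data, so the deletion and the treatment itself cannot be told apart. The study calls the libraries technical replicates of 1 line, hence the spread on which the p-values rest is that between these samples and may be technical. Cells were measured in bulk, so a change in some cells and a smaller change in all cells cannot be told apart.

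Long intergenic noncoding RNAs (lincRNAs) are transcribed from promoters of their own, are mostly spliced, and do not encode proteins. CTCF is a zinc finger protein that binds an asymmetric DNA motif, anchors chromatin loops and insulates neighbouring regions, and it also occupies many promoters. KMT2 complexes, of which ASH2L is a core component, methylate lysine 4 of histone H3, a modification that active lincRNA promoters share with those of protein-coding genes. The comparison asks whether CTCF binding at lincRNA promoters differed upon HOT treatment, and whether it did so as at coding promoters.

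Sequences of the sites on which the results turn are printed first. Sites are named gained or lost if the reads in +HOT differed from those in -HOT with an adjusted p under 0.05 (edgeR quasi-likelihood test, Benjamini-Hochberg over all tested sites) and a log2 fold change (log2FC, +HOT over -HOT) beyond 1 in size. The capitals mark the best match to a CTCF matrix of 20 positions, built from the strongest sites of these data. A match within the central 200 bp was found in 259 of the 361 lincRNA promoter sites (71.7%), in 68.8% of coding promoter sites, in 80.5% of distal sites and in 78.4% of all sites. The first set is shown because its members share the bases 3′ of the match, and the capitals are flanked by 20 bases on each side. Positions are on mm9 and sequences are written 5′ to 3′ on the strand of the match.
2700038G22Rik, lost (chr5:23357235-23357294, minus strand): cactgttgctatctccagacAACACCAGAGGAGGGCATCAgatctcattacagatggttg
Snhg15, lost (chr11:6426819-6426878, minus strand): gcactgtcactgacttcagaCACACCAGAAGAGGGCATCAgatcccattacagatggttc
2410006H16Rik, lost (chr11:62417327-62417386, plus strand): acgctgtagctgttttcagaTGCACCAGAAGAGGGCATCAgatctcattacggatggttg
Gm16741, gained (chr14:8580504-8580563, minus strand): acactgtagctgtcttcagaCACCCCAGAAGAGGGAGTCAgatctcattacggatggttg
Snhg5 upstream site (chr9:88419372-88419431, plus strand): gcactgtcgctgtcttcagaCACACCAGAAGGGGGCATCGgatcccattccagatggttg
Gas5 (chr1:162968850-162968909, plus strand): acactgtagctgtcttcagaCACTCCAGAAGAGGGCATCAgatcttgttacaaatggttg

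The 20 bases most often found directly 3′ of a match, over all sites, were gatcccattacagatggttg, present without a change in 3145 sites. At least 15 of these 20 bases were the same in 25961 sites, or 25% of all sites. Among lincRNA promoter sites this held for 93 (25.8%), at 83 genes, against 20.8% of coding promoter sites and 25.9% of distal sites. B2 and related short interspersed elements of rodents are known to carry CTCF motifs; repeat annotation was not used here, and the run was therefore not assigned to a repeat family. It was looked for after the sequences had been seen. At Platr4 (gained), 14 of the 20 bases 3′ of the match were the same, and at 4930578M01Rik (lost) 18 of 20 were found elsewhere in the match and its flanks, counting both strands. How reads that map to several copies were treated is not given in the study's methods.

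The second set holds other called sites without that run on which the results turn, and 2 strong sites. At Gm16956, which had no match, the capitals mark CG dinucleotides in 120 bases at the centre of the site.
Snhg7 exon site, lost (chr2:26494759-26494818, minus strand): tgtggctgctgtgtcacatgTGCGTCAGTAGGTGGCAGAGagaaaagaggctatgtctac
Trp53cor1, lost (chr17:29214817-29214876, minus strand): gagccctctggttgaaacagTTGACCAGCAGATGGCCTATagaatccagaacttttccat
Gm16956, lost (chr12:100800634-100800753, plus strand): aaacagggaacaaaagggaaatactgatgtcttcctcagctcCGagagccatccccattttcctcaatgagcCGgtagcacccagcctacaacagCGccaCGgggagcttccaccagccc
2610206C17Rik, gained (chr7:91926377-91926436, minus strand): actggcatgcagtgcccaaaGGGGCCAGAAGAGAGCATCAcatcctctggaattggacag
Platr4, gained (chr3:41296395-41296454, plus strand): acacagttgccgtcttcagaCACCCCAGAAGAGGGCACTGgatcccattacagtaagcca
Gm16799, gained (chr7:29857925-29857984, minus strand): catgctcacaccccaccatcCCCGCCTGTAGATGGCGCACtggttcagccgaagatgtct
Snhg7 promoter site (chr2:26495822-26495881, minus strand): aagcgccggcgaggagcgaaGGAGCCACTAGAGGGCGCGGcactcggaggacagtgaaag
Xist upstream site (chrX:100679547-100679606, plus strand): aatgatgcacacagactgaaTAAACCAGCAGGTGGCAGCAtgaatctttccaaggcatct

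Reads in sites numbered 9280701 in R1 and 7653295 in R3 of +HOT, against 4221752 in R1 and 3126722 in R3 of -HOT, so the -HOT values are the less precise ones. Values are given as normalised reads, which are raw counts scaled to a common effective library size. Over tested lincRNA promoter sites, log2 CPM correlated with r = 0.974 between the +HOT libraries and with r = 0.950 between the -HOT libraries. These are correlations across sites, which are not independent replicates. The site over the deleted exon 4 of Ash2l (chr8:26946472-26946648) held 6.51 and 14.8 normalised reads in +HOT, against 17.7 and 11.9 in -HOT. The groups overlapped there, with a log2FC of -0.54, SE 0.52 and an edgeR adjusted p = 0.543. A loss of exon 4 was not detectable from these counts.

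The lincRNA promoter sites were evenly spread around the TSS, with 190 upstream and 171 downstream, at a median distance of 1200 bp. Within 1000 bp of the TSS lay 159 sites (44.0%), against 49.6% of coding promoter sites. The centre lay in an intron of a lincRNA at 120 sites, in an exon of a lincRNA at 72, in an intergenic region at 107, and in an intron or exon of a protein-coding gene at 50 and 6. The remaining 6 lay in other genes. The nearest protein-coding TSS was at a median distance of 14177 bp. Sites are described as CpG-island-like if more than 50% of the central 500 bp was G or C and CpG occurred at over 0.6 of its expected number. This was the case at 45 sites (12.5%), compared with 23.9% of coding promoter sites and 0.826% of distal sites.

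Upon HOT treatment, most lincRNA promoter sites that changed had fewer CTCF reads. Of the 361 sites, 353 passed the filter on low counts. Of these, 5 were gained (1.42%, against 3.90% of all 99560 tested sites) and 9 were lost (2.55%, against 1.50% of all tested sites). The gained sites include Gm17278 and Gm16741, which passed the filter only through their +HOT reads. At the adjusted p alone, 15 of the 353 sites were higher in +HOT (4.25%, against 9.45% of all tested sites) and 64 were lower (18.1%, against 9.08%). The median log2FC was -0.22, with quartiles of -0.44 and 0.16, beside a median of 0.01 over all tested sites. The normalised reads of the groups did not overlap at 61.5% of the sites, against 56.8% of all tested sites, with +HOT above -HOT at 58 and below it at 159. These counts move with the scaling of the libraries. A loess scaling that follows site strength takes out the average difference between libraries at each strength, over all sites. It gave 2 gained and 15 lost sites, 14 higher and 31 lower ones, and a median of -0.11. With DESeq2, 1 site was gained and 4 were lost, and without the -HOT library R1, 4 were gained and 4 lost. DESeq2 gave an adjusted p at only 239 of the 353 sites, and the others could not be called with it. Since inputs were not analysed, fewer reads are not by themselves less binding.

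**Figure D1:**
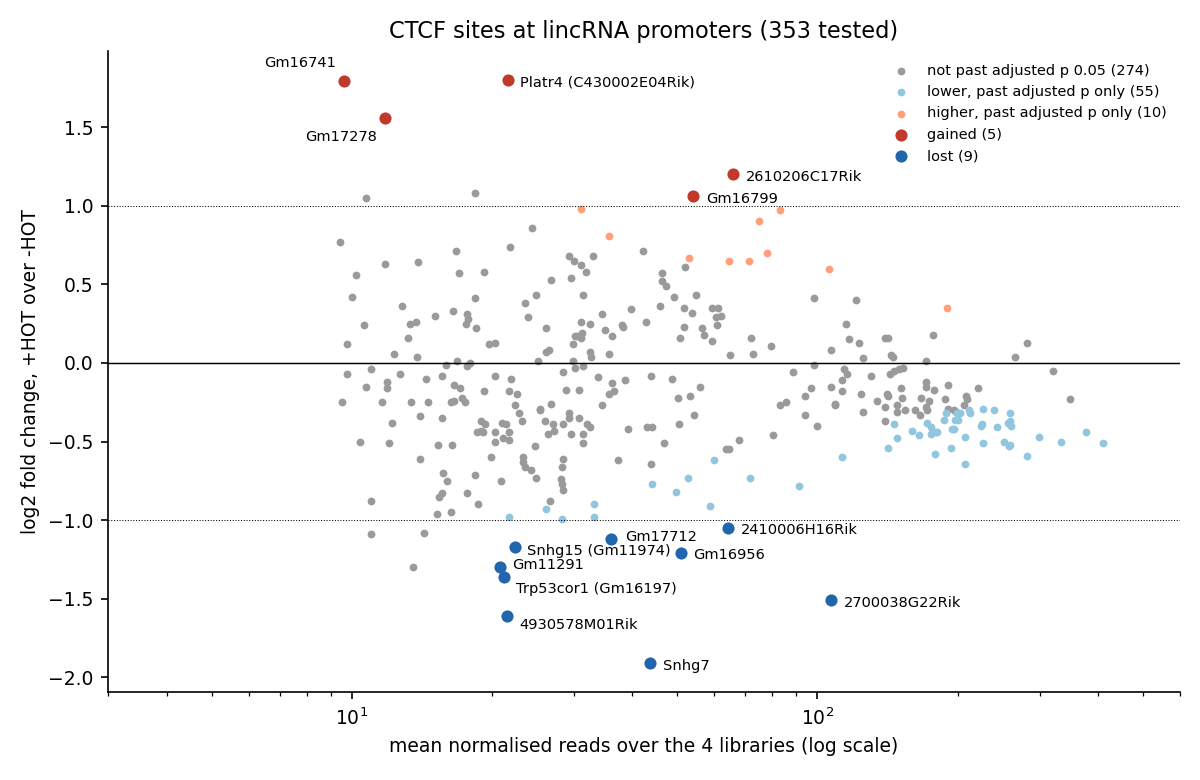
Log2 fold change of +HOT over -HOT against the mean normalised reads of each of the 353 tested CTCF sites at lincRNA promoters (log axis); points are sites, colours give the edgeR calls and dotted lines the fold threshold. The 9 lost sites (blue) and 5 gained sites (red) have low or middling read numbers, whereas the sites lower only by adjusted p (light blue) crowd at the strong end.

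The median of the lincRNA promoter sites lay nearer to that of coding promoter sites than to that of distal sites. Coding promoter sites had a median log2FC of -0.26, with 1.19% gained, 5.68% lost and 23.1% lower at the adjusted p alone. Distal sites had a median of 0.07, with 4.51% gained, 0.565% lost and 5.92% lower. The 582 tested sites that lay near both a lincRNA and a coding TSS, and thus are not lincRNA promoter sites by the rule, had a median of -0.41, with 9.79% lost and 34.9% lower. Of these, 42.1% were CpG-island-like, against 12.5% of tested lincRNA and 24.1% of tested coding promoter sites. Their median of normalised reads was 51.1, against 37.3 and 40.1. The part of CpG content and strength was not tested.

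Library by library, lincRNA promoter sites took 0.429 and 0.420% of all site reads in +HOT, against 0.479 and 0.475% in -HOT. The groups did not overlap, with a difference of -0.0523 percentage points (exact permutation test over the 4 libraries, two-sided, p = 0.33). With 2 against 2 libraries no smaller p than 0.33 can be reached. The median log2(CPM + 0.5) of lincRNA promoter sites minus that of distal sites was 0.145 and 0.0292 in +HOT, against 0.446 and 0.313 in -HOT, a difference of -0.292 with no overlap (exact permutation p = 0.33). For the same value minus that of coding promoter sites, the libraries gave 0.0232 and -0.0567 in +HOT, against -0.0472 and -0.197 in -HOT. These overlapped, with a difference of 0.105 (exact permutation p = 0.667), which turned to -0.0956 when a promoter window of 1000 bp was used. A difference between lincRNA and coding promoter sites was therefore not detected with these libraries, which does not show that both kinds of promoter behaved alike.

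By distance, the medians and the counts of lost sites differed. Over all tested sites, 1.50% were lost, 3.90% gained and 9.08% lower. Within 1000 bp, 7 of 154 tested sites were lost (4.55%), 2 were gained (1.30%) and 41 were lower (26.6%), with a median log2FC of -0.30. Between 1000 and 2000 bp, 2 of 104 were lost (1.92%), 2 were gained (1.92%) and 15 were lower (14.4%), with a median of -0.22. Between 2000 and 3000 bp, no site of 95 was lost, 1 was gained (1.05%) and 8 were lower (8.42%), with a median of -0.06. Coding promoter sites gave medians of -0.38, -0.18 and -0.10 over the same bins, with 7.85, 4.99 and 1.81% lost. Under scaling by site strength the medians of the lincRNA promoter sites were -0.14, -0.11 and -0.04. The share of CpG-island-like sites, 21.4, 6.73 and 4.21% over these bins, and the median normalised reads, 49.9, 30.0 and 35.7, moved with distance as well, and their part was not tested. Without the -HOT library R1, 3 sites within 1000 bp were lost and 19 were lower, and the medians were -0.23, -0.25 and -0.01, so that the order of the first bins turned. Of the 7 lost sites within 1000 bp, 6 lay downstream of the TSS, among 68 tested there (8.82%), and 1 upstream, among 86 (1.16%). Coding promoter sites within 1000 bp leaned the same way, with 10.3% of 4108 lost downstream and 5.78% of 4875 upstream. The difference between the sides was not tested. At the edge of the window, the 3 outermost members, at 2975, 2987 and 2995 bp, had log2FC of 0.24, 0.35 and -0.07. The 3 sites just outside, at 3022, 3024 and 3025 bp, had -0.10, 0.54 and -0.25.

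**Figure D2:**
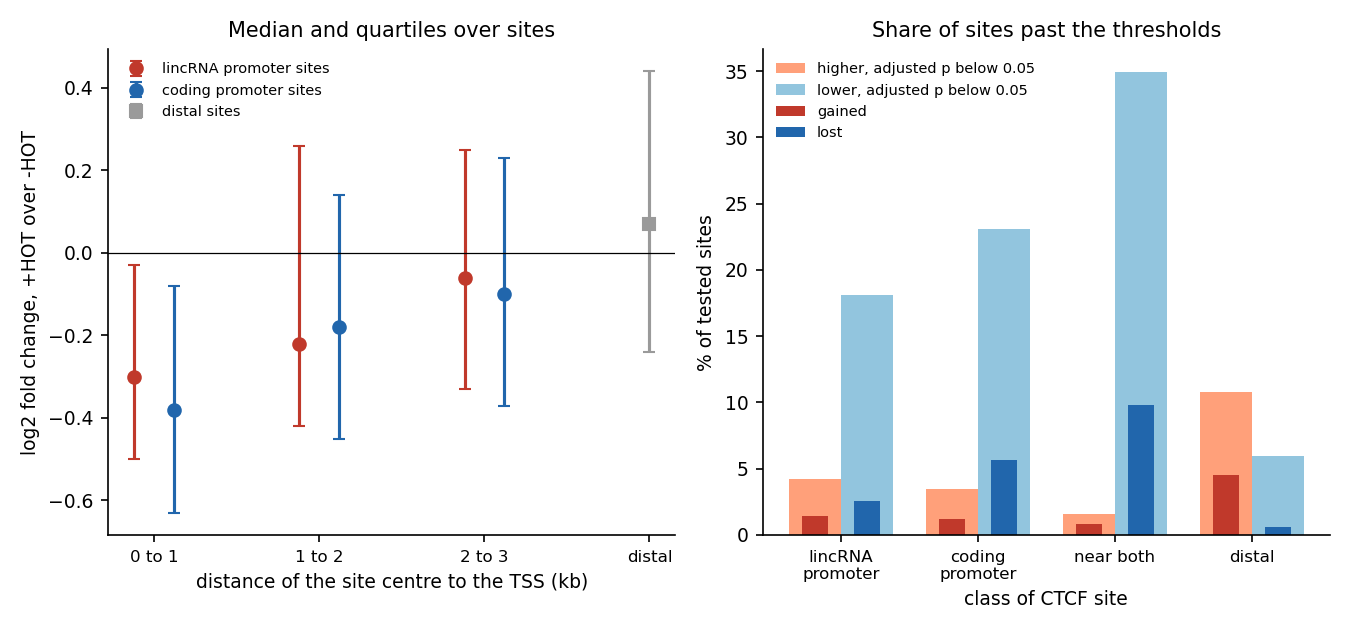
Left, median log2 fold change of +HOT over -HOT (points) with quartiles over sites (bars) by distance of the site centre to the TSS, for lincRNA and coding promoter sites and for distal sites. Right, percentage of tested sites past the thresholds by class; the medians approach 0 away from the TSS, from -0.30 to -0.06 at lincRNA promoters, and lower sites make up 18.1% at lincRNA promoters and 5.92% among distal sites.

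CpG content moved with the differences too. The 44 tested CpG-island-like sites at lincRNA promoters had a median log2FC of -0.45, with 0 gained, 2 lost (4.55%) and 16 lower (36.4%). These shares were near those over all CpG-island-like sites, with 0.177% gained, 6.54% lost and 38.3% lower. The other 309 sites had a median of -0.18, with 5 gained (1.62%), 7 lost (2.27%) and 48 lower (15.5%). Over all sites that were not CpG-island-like, 4.09% were gained, 1.23% lost and 7.51% lower. CpG-island-like coding promoter sites had a median of -0.46 and the others one of -0.18. Scaled along site strength, the medians at lincRNA promoters were -0.30 and -0.09. By sequence, 8 of the 9 lost sites and all 5 gained sites held a match to the CTCF matrix, out of 253 tested sites with a match and 100 without. The match of the lost site Gm17712 was borderline, with a log2 score of 1.12 at a threshold of 1.1, and that of 4930578M01Rik scored 5.52. Sites with the common run 3′ of the match were lower in 7 of 91 cases (7.69%) and higher in 3 (3.30%), with a median of -0.16. Over all sites with the run, 1.56% were lower and 4.87% higher, with a median of 0.06. Sites with a match and other 3′ bases were lower in 41 of 162 cases (25.3%) and higher in 6 (3.70%), with a median of -0.23. Over all sites of that kind, 10.6% were lower and 12.3% higher, with a median of 0.03. At lincRNA promoters, the sites with the run were also weaker, with a median of 26 normalised reads against 87.0. The order of their medians turned after scaling along site strength, to -0.16 with the run (8 of 91 lower) and -0.09 with other bases (16 of 162 lower). Without the -HOT library R1, the median of the sites with the run was -0.02 and 2 were lower.

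Calls were also counted by the distance to the nearest protein-coding TSS. Among 150 sites with a coding TSS between 3000 and 10000 bp away, 5 were lost and 0 gained, and among 121 sites between 10000 and 50000 bp away, 3 were lost and 1 gained. Among 82 sites with every coding TSS more than 50000 bp away, 1 was lost (1.22%) and 4 were gained (4.88%), near the shares over all tested sites (1.50 and 3.90%). The gained sites over these bins include Gm17278 and Gm16741, which passed the filter on low counts only through their +HOT reads. The medians of these bins, -0.25, -0.27 and -0.15, did not follow the distance in order, and their differences were not tested.

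Site strength moved with the calls. Of the 64 lincRNA promoter sites with more than 160 mean normalised reads, 39 were lower (60.9%) and 1 was higher, with a median log2FC of -0.33. Over all tested sites of that strength, 51.0% were lower and the median was -0.32. None of the 64 was gained or lost, where 0.0430% of all tested sites of that strength were gained and 0.161% lost. After scaling along site strength, 2 of the 64 were lower and 6 higher, with a median of -0.02. That scaling takes out the average difference at each strength, so this outcome was largely set in advance for sites that moved like others as strong. The direction of the strong sites thus depends on the scaling chosen, and this scaling cannot show whether they changed. The part of library scaling in their lower reads cannot be told apart from a change common to strong sites.

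The 5 strongest sites are given as examples. The strongest lay 287 bp downstream of the TSS of Gm17585, in an exon (chr4:155143802-155144929), and was CpG-island-like. It held 342 and 334 normalised reads in +HOT, against 478 and 488 in -HOT, with a log2FC of -0.51 (SE 0.08, edgeR adjusted p = 4.12e-06). The site 261 bp upstream of Snhg17 (annotated as 9430008C03Rik), a small nucleolar RNA (snoRNA) host, held 327 and 314 in +HOT, against 456 and 410 in -HOT, with a log2FC of -0.44 (adjusted p = 0.000103). The groups were apart at both sites, but with scaling along site strength the log2FC were 0.04 and 0.08. Gm17414 had a log2FC of -0.50 (adjusted p = 3.29e-05), and -0.02 with that scaling. At Gm12602 and Gm8705 the log2FC were -0.23 and -0.05 and did not pass the test.

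Among the lost sites, the largest fold change was found at Snhg7, which hosts snoRNAs in its introns. This gene carried 2 sites. The one in an exon, 958 bp downstream of the TSS (chr2:26494619-26494966), held 17.6 and 19.5 normalised reads in +HOT, against 78.0 and 59.7 in -HOT. Both +HOT libraries were far below both -HOT libraries, with a log2FC of -1.91 (SE 0.27, edgeR adjusted p = 4.17e-07). The CpG-island-like site at the promoter, 130 bp upstream of the TSS (chr2:26495529-26496259), held 218 and 206 in +HOT, against 294 and 316 in -HOT. This was lower as well, by a smaller log2FC of -0.52 (adjusted p = 0.000121), which became -0.12 with scaling along site strength. The difference between both sites was not tested.

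The lost site with the smallest p was found at 2700038G22Rik, an uncharacterised lincRNA with 3 sites. In its first kilobase, 867 bp downstream of the TSS in an intron (chr5:23357035-23357530), the site with the common run held 61.9 and 49.9 normalised reads in +HOT, against 177 and 141 in -HOT. The log2FC was -1.51 (SE 0.17, adjusted p = 5.96e-10). The CpG-island-like promoter site, 130 bp upstream of the TSS, held 167 and 185 in +HOT, against 240 and 207 in -HOT (log2FC -0.36, adjusted p = 0.0193). This did not pass the test with DESeq2 (adjusted p = 0.148), without the -HOT library R1 (0.395) or the +HOT library R1 (0.118), and the log2FC was -0.07 after scaling along site strength. The third site, 2534 bp downstream, held 130 and 148 in +HOT, against 112 and 95.5 in -HOT (log2FC 0.40, adjusted p = 0.0577), and passed the test under 5 alternatives, among them scaling along site strength (0.43, adjusted p = 0.0459). The 3 neighbouring sites thus had log2FC of both signs, and the differences between them were not tested.

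Trp53cor1, annotated as Gm16197 and known as lincRNA-p21, is induced by p53 and lies next to Cdkn1a, which encodes a cell cycle inhibitor. Its site in an intron, 1028 bp downstream of the TSS (chr17:29214772-29214984) and 13046 bp from the nearest coding TSS, that of Cdkn1a, held 9.12 and 14.8 normalised reads in +HOT, against 30.9 and 29.9 in -HOT. The groups were apart, with a log2FC of -1.36 (SE 0.38, adjusted p = 0.00715). Without the -HOT library R1 the adjusted p was 0.105, and without the +HOT library R1 it was 0.0718. Snhg15, annotated as Gm11974 and another snoRNA host, had a lost site with the common run 91 bp upstream of 1 of its transcript starts (chr11:6426719-6426929). It held 13.7 and 14 in +HOT, against 33.8 and 27.9 in -HOT (log2FC -1.17, SE 0.36, adjusted p = 0.0155), and was not called without the -HOT library R1 (adjusted p = 0.247). A stronger CpG-island-like site of Snhg15, 133 bp upstream of another start, held 88.6 and 83.4 in +HOT, against 119 and 107 in -HOT (log2FC -0.40, adjusted p = 0.0823).

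The other lost sites were at lincRNAs that are in none of the gene lists used below, and their functions were not looked up. Gm16956 was the only lost site without a match to the matrix. It was CpG-island-like, lay 1357 bp upstream of the TSS (chr12:100800494-100800895), and held 33.9 and 26.5 normalised reads in +HOT, against 63.3 and 79.6 in -HOT (log2FC -1.21, adjusted p = 0.000222). At 2410006H16Rik (chr11:62417158-62417548), with the common run, the libraries held 44.9 and 39.0 in +HOT, against 95.6 and 77.6 in -HOT (log2FC -1.05, adjusted p = 0.000196). The log2FC fell short of the threshold without the -HOT library R1 (-0.89) or the +HOT library R3 (-0.96). Gm17712 held 22.8 and 23.4 in +HOT, against 61.8 and 35.8 in -HOT (log2FC -1.12), and all 4 libraries were apart by group. With DESeq2, Gm17712 was not called (DESeq2 adjusted p = 0.0542). At 4930578M01Rik the values were 11.7 and 8.58 in +HOT, against 22.1 and 43.8 in -HOT (log2FC -1.61), and at Gm11291 they were 16.3 and 7.02 in +HOT, against 27.9 and 31.8 in -HOT (log2FC -1.30). These 3 sites lost their call when 1 library was left out, Gm17712 without the -HOT library R1 (adjusted p = 0.430), 4930578M01Rik without the -HOT library R3 (0.237), and Gm11291 without either -HOT library or the +HOT library R3 (0.0695, 0.0863 and 0.143). Under every alternative fit, Snhg7, 2700038G22Rik and Gm16956 were called lost, 12 fits in each case.

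**Figure D3:**
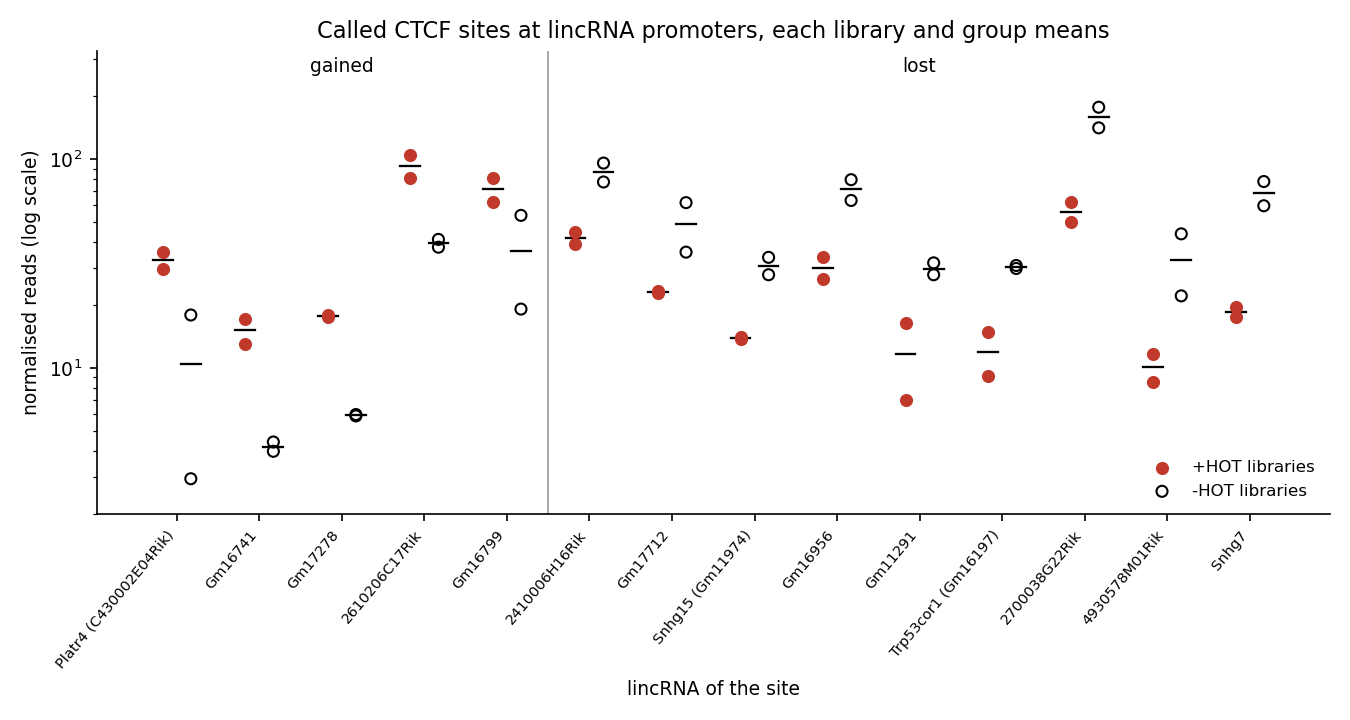
Normalised reads (log axis) of each library at the 5 gained and 9 lost CTCF sites at lincRNA promoters; filled points are the +HOT libraries, open points the -HOT libraries, and horizontal lines the group means. At Snhg7 the +HOT libraries lie at 17.6 and 19.5 and the -HOT libraries at 78.0 and 59.7, whereas the -HOT libraries of Platr4 and Gm16799 lie far apart.

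Of the 5 gained sites, the one with the smallest p was 2196 bp downstream of the TSS of 2610206C17Rik (chr7:91926207-91926611), with a coding TSS 75674 bp away. It held 80.8 and 104 normalised reads in +HOT, against 41.2 and 37.8 in -HOT, with a log2FC of 1.20 (SE 0.22, adjusted p = 6.21e-05). Its log2FC was 0.97 after scaling along site strength. Platr4, annotated as C430002E04Rik and named for its expression in pluripotent cells, had a gained site in an intron, 681 bp downstream of the TSS (chr3:41296265-41296602). It held 35.8 and 29.6 in +HOT, against 2.94 and 17.9 in -HOT (log2FC 1.80, SE 0.43, adjusted p = 0.00160). The -HOT values rest on 2 and 9 reads, and without the -HOT library R1 the log2FC was 0.86 (adjusted p = 0.317). Gm16799, located in Ryr1, held 62.5 and 81.1 in +HOT, against 19.1 and 53.7 in -HOT (log2FC 1.06, adjusted p = 0.00231). Its log2FC fell short of the threshold without the -HOT library R1 (0.39) or the +HOT library R3 (0.88). The same held with scaling along site strength (0.81) and with DESeq2 (0.98, DESeq2 adjusted p = 0.368).

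The other 2 gained sites had few reads and fell outside the rule for naming sites, so they were chosen after their values were seen. In each -HOT library they lay below the filter on low counts, and they were tested only through their +HOT reads. Their calls are therefore no support for a gain. Gm17278 held 17.6 and 17.9 normalised reads in +HOT, against 5.88 and 5.97 in -HOT (log2FC 1.56, adjusted p = 0.0343), from 4 and 3 reads in -HOT. Gm16741 held 13 and 17.2 in +HOT, against 4.41 and 3.98 in -HOT (log2FC 1.79, adjusted p = 0.0455), from 3 and 2 reads in -HOT. Leaving out any of the 4 libraries ended the call of Gm17278, with an adjusted p between 0.132 and 0.226. For Gm16741 it ended without either -HOT library or the +HOT library R1, with an adjusted p between 0.109 and 0.231, and under scaling along site strength (0.0548), and without the +HOT library R3 the site was not tested.

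Known lincRNAs were then examined by list. Of 88 symbols, 16 genes had a site, and these carried 38 tested sites, of which 0 were gained, 3 lost, 2 higher and 9 lower, with a median log2FC of -0.41. Over all tested sites, 3.90% were gained, 1.50% lost, 9.45% higher and 9.08% lower. The snoRNA and microRNA host RNAs made up 17 of these sites at 8 genes (Gas5, Snhg4, Snhg5, Snhg7, Snhg12, Snhg15, Snhg17 and Dleu2). The small RNAs they release act in ribosomal RNA modification or in silencing of mRNAs. Of the 17 sites, 2 were lost, 7 were lower including these, and none was higher, where 18.1% of all lincRNA promoter sites and 9.08% of all tested sites were lower. The median was -0.52, beside -0.22 over all lincRNA promoter sites and 0.01 over all tested sites. The median was -0.50 under scaling along site strength, with 4 lost and 7 lower, and -0.47 with total counts. Without the -HOT library R1, 1 was lost and 4 were lower. The members had been listed with earlier results of these data known, and the list was not set against other lists.

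Gas5, whose RNA accumulates in growth-arrested cells, had 2 sites. The stronger, with the common run, lay 991 bp downstream of the TSS (chr1:162968689-162969118) and held 33.9 and 32.0 normalised reads in +HOT, against 64.7 and 45.8 in -HOT (log2FC -0.77, SE 0.26, adjusted p = 0.0250). It did not pass the test with DESeq2 (adjusted p = 0.139), without the +HOT library R3 (0.0614), or without the -HOT library R1 (log2FC -0.48, adjusted p = 0.520). Snhg5 had a site with the common run 1655 bp upstream of the TSS (chr9:88419155-88419597), which held 42.3 and 40.6 in +HOT, against 92.7 and 59.7 in -HOT (log2FC -0.91, SE 0.22, adjusted p = 0.00205), but without the -HOT library R1 the log2FC was -0.53 (adjusted p = 0.370). Its CpG-island-like site 405 bp upstream held 60.6 and 60.1 in +HOT, against 50.0 and 57.7 in -HOT (log2FC 0.18, adjusted p = 0.661). Snhg12 was lower at its exon site 308 bp downstream, with 91.8 and 87.3 in +HOT, against 129 and 145 in -HOT (log2FC -0.60, adjusted p = 0.00386, and 0.0529 without the -HOT library R3). Snhg12 had 3 sites in all, and its other sites held the common run and were not called. At the strongest sites of Snhg4 and of Dleu2, the host of a microRNA cluster, the log2FC were -0.49 (adjusted p = 0.0864) and -0.30 (adjusted p = 0.0962).

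Sox2ot, the transcript that spans the gene of the pluripotency factor Sox2, had the most sites of any lincRNA, 5, and was the only developmental RNA of its list with a site. In its introns, 2 sites were higher in +HOT. The site 2522 bp downstream of a TSS (chr3:34539668-34540228) held 92.5 and 105 normalised reads in +HOT, against 57.4 and 45.8 in -HOT (log2FC 0.90, SE 0.20, adjusted p = 0.000785). The site 1569 bp downstream of another TSS (chr3:34097173-34097537) held 35.8 and 48.4 in +HOT, against 26.5 and 13.9 in -HOT (log2FC 0.98, SE 0.32, adjusted p = 0.0244). The groups were apart at both sites, and neither site had a match to the CTCF matrix in its centre. The weaker of both passed the test neither with DESeq2 (adjusted p = 0.149) nor with scaling along site strength (0.0928), nor without the -HOT library R3 (log2FC 0.64, adjusted p = 0.299) or the +HOT library R3 (0.76, adjusted p = 0.134). The strongest Sox2ot site, with a match, held 113 and 112 in +HOT, against 86.8 and 81.6 in -HOT (log2FC 0.41, adjusted p = 0.0861). The remaining sites had log2FC of -0.44 and -0.74 and did not pass the test, but without the +HOT library R1 the last of these was called lost (-1.18, adjusted p = 0.0237). The sites of Sox2ot thus had log2FC of both signs, and the differences between them were not tested.

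The list of X inactivation, with Xist, Ftx and Firre, carried 8 sites, of which 1 was lower and 0 were gained or lost. Xist, the RNA that coats the inactive X chromosome, had its strongest site 1004 bp upstream of a TSS (chrX:100679298-100679822), with 162 and 136 normalised reads in +HOT, against 187 and 215 in -HOT (log2FC -0.41, SE 0.13, adjusted p = 0.0139). Its log2FC was -0.18 under scaling along site strength, and it passed the test neither there nor with DESeq2 (adjusted p = 0.104), nor without the -HOT library R3 (0.153) or the +HOT library R3 (0.136). At Ftx (B230206F22Rik), an activator of Xist, the strongest site held 132 and 115 in +HOT, against 174 and 141 in -HOT (log2FC -0.37, adjusted p = 0.0559). At Firre (6720401G13Rik), the strongest site held 47.5 and 45.2 in +HOT, against 55.9 and 51.8 in -HOT (log2FC -0.22, adjusted p = 0.593).

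The 5 sites of imprinted RNAs did not pass the test. The strongest site of Meg3, which is expressed from the maternal allele, held 97.7 and 105 normalised reads in +HOT, against 109 and 117 in -HOT (log2FC -0.15, SE 0.16, adjusted p = 0.581). At Airn, the antisense RNA of Igf2r, the strongest site held 42.3 and 41.3 in +HOT, against 42.7 and 25.9 in -HOT, and the groups overlapped (log2FC 0.24, adjusted p = 0.619). At Oip5os1 (1700020I14Rik), the stronger site, 2884 bp upstream of the TSS, held 28.7 and 26.5 in +HOT, against 26.5 and 31.8 in -HOT (log2FC -0.06, adjusted p = 0.933). The weaker one, 180 bp upstream of the TSS, held 20.8 and 16.4 in +HOT, against 35.3 and 33.8 in -HOT, with a log2FC of -0.88 and an adjusted p = 0.0501, which missed the threshold here but not under 6 alternatives, among them a fit without the +HOT library R1 (-1.07, adjusted p = 0.0413). In the p53-linked list, 1 of 4 sites was lost, that of Trp53cor1 described above.

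**Figure D4:**
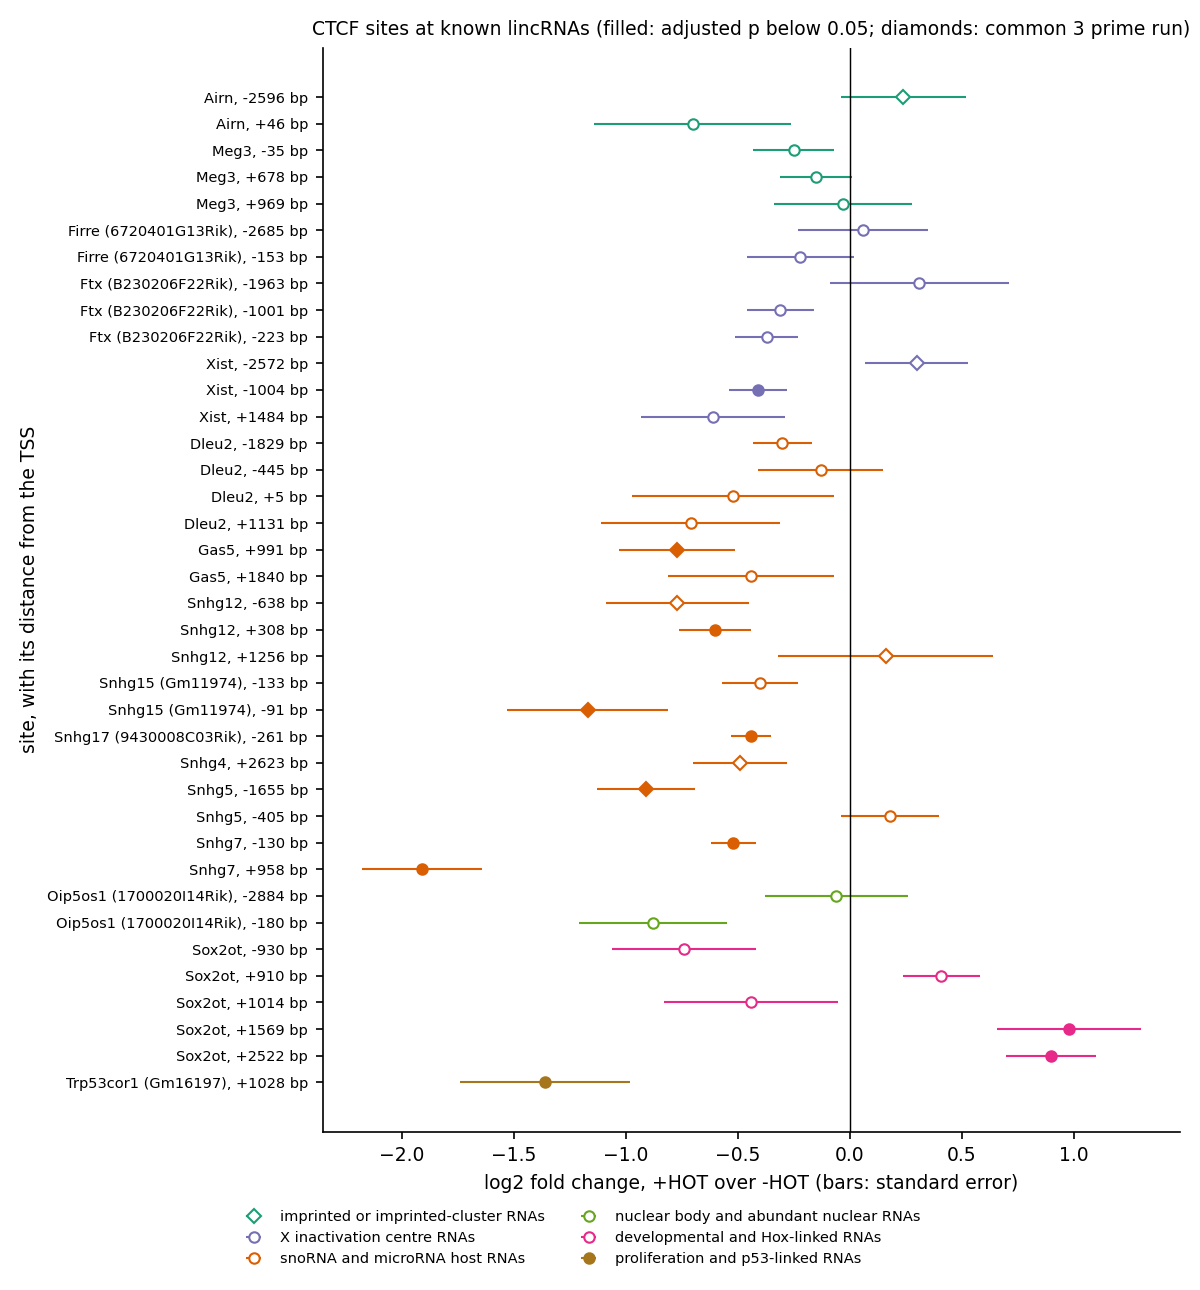
Log2 fold change of +HOT over -HOT with its standard error (bars) at the CTCF sites of known lincRNAs, ordered by list and labelled with the distance to the TSS; filled symbols passed the edgeR adjusted p of 0.05 and diamonds mark sites with the common run 3′ of the match. Sites of snoRNA and microRNA hosts lie left of 0 at 15 of 17 sites, down to -1.91 at Snhg7, and the filled Sox2ot sites lie at 0.98 and 0.90.

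Outside the rule for naming, and chosen after their values were seen, are 2 further host RNAs of microRNAs whose sites were lower without reaching the fold threshold. Carmn (Gm16908) held 232 and 216 normalised reads in +HOT, against 334 and 344 in -HOT (log2FC -0.59, adjusted p = 6.43e-06). The stronger site of Mir100hg (D230004N17Rik) held 175 and 170 in +HOT, against 232 and 249 in -HOT (log2FC -0.47, adjusted p = 0.00151). Each exceeded 160 mean normalised reads, a strength at which 60.9% of lincRNA promoter sites and 51.0% of all tested sites were lower. With scaling along site strength both had a log2FC of -0.17 and did not pass the test. A further 5 sites had an absolute log2FC above 1 without passing the test, at a median of 13.5 normalised reads, where these counts give little precision.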

How the data were processed

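The study's methods describe trimming (Trim_Galore), alignment to mm9 (BWA), removal of duplicates and of blacklisted regions, and narrow peak calling (MACS2). They give no versions, no counting tool, and not whether libraries were pooled for peak calling. For each site the authors deposited raw counts of reads, without normalisation. The table's 4 columns of normalised values, the authors' fold changes and p-values, their lists of gained and lost sites, and the inputs were not used here. Library columns are numbered R1 and R3 but the titles R1 and R2, so columns were assigned to groups only. Table starts count from 0, and 1 was added.

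Counts were tested with edgeR 4.0.16 in R 4.3.3 (quasi-likelihood, TMM, filterByExpr with a minimum count of 10, robust), with Benjamini-Hochberg adjustment over 99560 sites. SE was taken as the size of the log2FC over the root of F. Site reads ranged from 3126722 to 9280701 per library, and this sets the precision. The code was tested on simulated data. Alternatives were DESeq2 1.42.0, its size factors, total counts, loess scaling along site strength, other count filters, a replicate block, no fold threshold, other promoter definitions, 1 site per gene, and leaving out each library. Deviations of same-numbered libraries correlated with r = 0.03 over all tested sites, a value that counting noise at weak sites pulls toward 0. Whether numbers pair libraries therefore stays undecided, and the main fit used no pairing. With the replicate block, 10643 of all tested sites were higher and 10235 lower, against 9413 and 9036 in the main fit.

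Sites were placed by their centre on NCBIM37, the assembly of mm9, with all transcript starts of GENCODE vM1. The CTCF matrix was built from 1727 core matches among the 5000 strongest sites, with a threshold passed by 0.0001 of background positions. Current symbols came from a RefSeq table (names only) and matched 147 of 263 genes. Members and gene lists were chosen with earlier results of these data known. By rule, named sites were up to 10 gained and 10 lost sites of smallest p, without overlap and with at least 20 mean normalised reads, the 5 strongest sites, the strongest site of each listed gene, and the 3 genes with most sites (Sox2ot, Dleu2 and 2700038G22Rik).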

Additional observations from a re-analysis of the deposited data

How the results depend on the processing

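The counts and medians of the lincRNA promoter sites (5 gained, 9 lost, median log2FC -0.22) moved under these alternatives, and the cause was not tested. DESeq2, which gave an adjusted p at 239 of the 353 sites, called 1 gained and 4 lost. It gave none at Platr4, Trp53cor1, Snhg15, 4930578M01Rik, Gm11291, Gm17278 and Gm16741, so these could not be called with it. Gm16799 and Gm17712 had an adjusted p and were not called. Scaling along site strength gave 2 gained, 15 lost and a median of -0.11, and together with the replicate block 3 gained, 14 lost and -0.11. The replicate block alone gave 6 gained, 9 lost and -0.22. Total counts gave 8 gained and a median of -0.17, a 1000 bp window 2 gained and -0.30, and the strongest site of each gene 5 lost. Without a fold threshold 15 were higher and 64 lower. Leaving out 1 library in turn gave 3 to 4 gained, 4 to 13 lost and medians of -0.26 to -0.18, with 3 gained without the +HOT library R3 and 4 lost without the -HOT library R1.

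The lincRNA minus coding promoter difference of 0.105 turned to -0.0956 with the 1000 bp window and was 0.0305 to 0.180 without 1 library. The read share difference was -0.0570 to -0.0477 and the lincRNA minus distal difference -0.359 to -0.226 without 1 library. With scaling along site strength, log2FC changed sign at Gm17585 (0.04), Snhg17 (9430008C03Rik, 0.08), Gm12602 (0.27) and Gm8705 (0.42), and with the replicate block added it was 0.04, 0.09, 0.28 and 0.42. These are strong sites, where that scaling by construction takes out the average difference over all sites. Over all tested sites, DESeq2 called 1722 gained and 697 lost, and scaling along site strength 2288 and 1935, against 3878 and 1491. Among sites that did not pass the test, the sign also changed when 1 library was left out, with log2FC of -0.04 (without the -HOT library R3) to 0.68 at Airn, -0.21 to 0.05 (without the -HOT library R3) at the stronger Oip5os1 site (1700020I14Rik), and -0.10 to 0.01 (without the +HOT library R1) at Gm8705. Of 394 refits of named sites, 322 kept direction and side of the threshold, 46 fell short of it, 15 newly passed it and 11 changed sign. Depth limits the precision of the weak sites, where the -HOT values of Gm16741 and Gm17278 rest on 2 to 4 reads.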
